A study of Arabidopsis thaliana with 9 samples.

Results

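A set of 120 probe sets whose transcripts were lowered in both cyp78a5,7 and amp1-13 seedlings was examined, out of 22746 probe sets on the Arabidopsis ATH1 array. A probe set is the group of short oligonucleotides that reports 1 transcript. A probe set belonged to the set when its signal on all 6 mutant arrays lay below its signal on all 3 wild type arrays, and when its mean log2(signal + 16) was at least 1 lower in each mutant. Of 2290 probe sets with that order of arrays, 128 also met the 2-fold limit. The rule named 9 genes to be left out (IAA4, IAA29, EXPA8, EXPA11, XTH5, ORA59, CBF3, QQS and AHP4), and 8 of them had met it, which left 120 members, or 0.528% of the probe sets. Of the members, 112 matched 1 gene each, 4 matched several genes and 4 had no gene name in the sources used. For 65 members the only name was that of the locus.

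The study asked whether the double mutant cyp78a5,7 and the mutant amp1-13, which resemble each other in shoot form, also resemble each other in gene expression. Total RNA of whole seedlings, aged 10 days, was hybridised to 9 arrays, and each genotype (wild type Col-0, the double mutant cyp78a5,7 and amp1-13) had 3 biological replicates. All 3 genotypes grew in diluted liquid Murashige and Skoog medium with 1% sucrose and 1% DMSO, at 26 °C and 16 h of light according to the sample labels. The solvent DMSO was therefore present in the wild type as well. cyp78a5,7 combines mutations in 2 related genes, and amp1-13 is described in the study as a strong and putative null allele. The amp1-13 arrays had served in an earlier study of the compound hyperphyllin. Each mutant is represented by 1 line. In RNA from whole seedlings, fewer cells that express a gene and less RNA per cell cannot be told apart.

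AMP1 encodes a membrane protein related to glutamate carboxypeptidases, and plants without it make extra leaves, an enlarged shoot meristem and more cytokinin. CYP78A5 (KLUH) and CYP78A7 encode cytochrome P450 enzymes whose loss speeds up leaf formation. The molecules on which these proteins act in the plant are not known. The members are grouped below by the known roles of 46 of them.

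As the rule fixed, every member was lower in both mutants, and the sizes of the falls are given as a description. Mean wild type signals of the members ran from 31.0 to 5854 on the linear scale of the deposited values. In cyp78a5,7 the members kept between 4.29% and 48.1% of their wild type signal, with a median of 30.1%. In amp1-13 they kept between 8.07% and 49.7%, with a median of 36.6%. On the log2(signal + 16) scale the median change was -1.50 in cyp78a5,7 and -1.23 in amp1-13, and 21 members fell at least 4-fold in cyp78a5,7 against 4 in amp1-13. The mean signal was under 16 for 12 members in cyp78a5,7 and for 11 in amp1-13, where the offset of 16 limits how large a fall can appear. The gap between the lowest wild type array and the highest mutant array had a median of 0.58 and ranged from 0.069 to 1.75 on the log2 scale, and it reached 2-fold for 14 members.

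With all 9 arrays quantile normalized and fitted together in limma, 113 of the 120 members were called lower in cyp78a5,7 than in wild type, at an adjusted p under 0.05 and at least 2-fold, against 2.64% of all probe sets. In amp1-13, 100 of the 120 were called lower, against 0.796% of all probe sets. Since the rule used both of these comparisons, nothing is read from these 2 counts, nor from the absence of members called higher (background 4.37% in cyp78a5,7 and 1.8% in amp1-13). The count for amp1-13 depended on single arrays: it was 63 without wild type array 1, 52 without wild type array 3, 65 without amp1-13 array 1 and 64 without amp1-13 array 2.

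**Figure D1:**
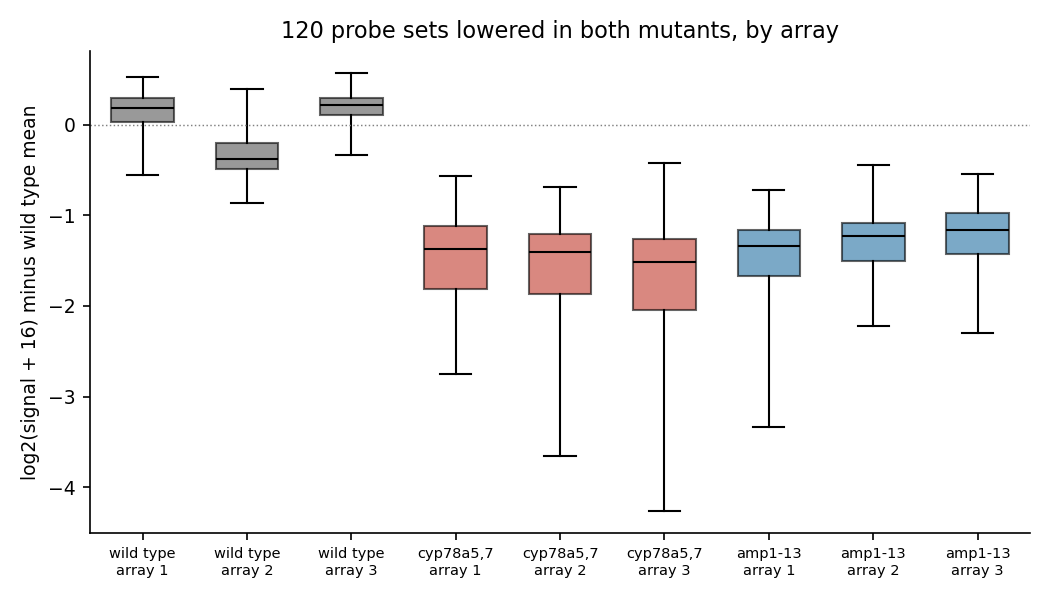
Distribution over the 120 members of log2(signal + 16) minus each member's wild type mean, for the 9 arrays (line, median; box, quartiles; whiskers, lowest and highest member). The wild type medians are 0.18, -0.38 and 0.21, with array 2 below the other two, and the mutant medians lie between -1.51 and -1.17.

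The wild type arrays were not alike for the members. Wild type array 2 was the lowest of the 3 wild type arrays in 98 of the 120 members (81.7%), against 29.2% of all probe sets, and in 101 members after quantile normalization. The members' median difference from the wild type mean was 0.18, -0.38 and 0.21 on wild type arrays 1 to 3. It was -1.37, -1.41 and -1.51 on the cyp78a5,7 arrays and -1.34, -1.22 and -1.17 on the amp1-13 arrays. That the median of every mutant array lay below that of wild type array 2 was fixed by the rule. Without wild type array 2 the same 120 members had median changes in the fit of -1.67 in cyp78a5,7 and -1.41 in amp1-13, compared with -1.46 and -1.26 on all arrays. The rule itself depended on this array: 293 probe sets met it without wild type array 2, of which 119 were among the 120. The members' median SD over the 3 arrays, on the log2(signal + 16) scale, was 0.36 for wild type, 0.29 for cyp78a5,7 and 0.19 for amp1-13.

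The largest falls common to both mutants were ranked by the fall in the mutant that changed less. First came AT1G22160, with signals of 539, 369 and 403 in wild type, 73.5, 40.9 and 13.8 in the double mutant and 83.7, 98.4 and 75.2 in amp1-13 (arrays 1 to 3, here and below). All 3 arrays of the double mutant lay below all 3 of amp1-13, and the log2 changes from wild type were -3.07 (cyp78a5,7) and -2.14 (amp1-13). AT5G62280 read 199.9, 192 and 133 in wild type, 20.7, 19.3 and 14.4 in the double mutant and 34.98, 24.4 and 31.02 in amp1-13. Here too the 3 cyp78a5,7 arrays lay below the 3 amp1-13 arrays, with changes of -2.47 (cyp78a5,7) and -2.04 (amp1-13). Between the mutants, neither gene passed limma's test (differences of -0.87 and -0.36, adjusted p = 0.132 and 0.178).

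HB52, a homeodomain-leucine zipper transcription factor, came next. Its readings were 130.1, 70.01 and 109 in wild type, 2.87, 16.9 and 20.7 in the double mutant and 8.13, 16.8 and 10.2 in amp1-13. Both mutants lay near the offset and overlapped, and their changes of -2.03 (cyp78a5,7) and -2.08 (amp1-13) were close to each other. AT1G64370 read 2074, 1173 and 1771 in wild type, 652, 220.1 and 229.6 in the double mutant and 260.2, 620.5 and 459 in amp1-13. The mutant arrays overlapped, with array 1 highest in cyp78a5,7 and array 2 highest in amp1-13. In limma its call in amp1-13 was lost without any 1 of the 3 amp1-13 arrays or without wild type array 1 or 3, with adjusted p between 0.0578 and 0.114 in the settings that lost it.

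AT3G53980, placed under lipid transport in the ontology text of the study's supplementary gene table, had signals of 458, 272 and 422 in wild type, 95.2, 112 and 67.4 in the double mutant and 87.3, 85.7 and 86.9 in amp1-13. The amp1-13 values differed little among themselves and lay inside the cyp78a5,7 range. AT1G73120 read 529.7, 309.9 and 497 in wild type, 81.3, 117 and 33.9 in the double mutant and 83.8, 142 and 107 in amp1-13. The 2 mutants overlapped, and the call of AT1G73120 in amp1-13 was lost without wild type array 1 or 3 or amp1-13 array 1 (adjusted p up to 0.0635 in limma). AT5G25840 read 669, 364 and 572 in wild type, 108, 119.5 and 151 in the double mutant and 126, 133 and 148 in amp1-13. Its mutant arrays overlapped almost fully, at -1.92 (cyp78a5,7) and -1.82 (amp1-13) on the log2 scale.

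AT3G48970, listed under metal ion transport in the same ontology text, read 155, 88.3 and 157 in wild type, 27.7, 16.4 and 13.4 in the double mutant and 25.3, 25.5 and 26.8 in amp1-13. All 3 amp1-13 arrays fell between cyp78a5,7 arrays 1 and 2. AT1G78020 read 1044, 591 and 1099 in wild type, 230, 229.5 and 208 in the double mutant and 215, 239 and 309.5 in amp1-13. Wild type array 2 was the lowest wild type value in both of these genes, and the mutants overlapped in both. AT1G62770 read 456, 476 and 552 in wild type, 134, 201 and 102 in the double mutant and 154, 135 and 142 in amp1-13. Its wild type arrays were close to each other, and the amp1-13 values lay within the cyp78a5,7 range. AT4G01390 read 329, 228 and 450.4 in wild type, 150.3, 85.1 and 66.1 in the double mutant and 77.1, 98.4 and 95.2 in amp1-13, again with the amp1-13 values inside the cyp78a5,7 range. The other 4 of these 15 genes, PMEPCRD, RGF9, GASA6 and GolS2, are described with their groups.

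**Figure D2:**
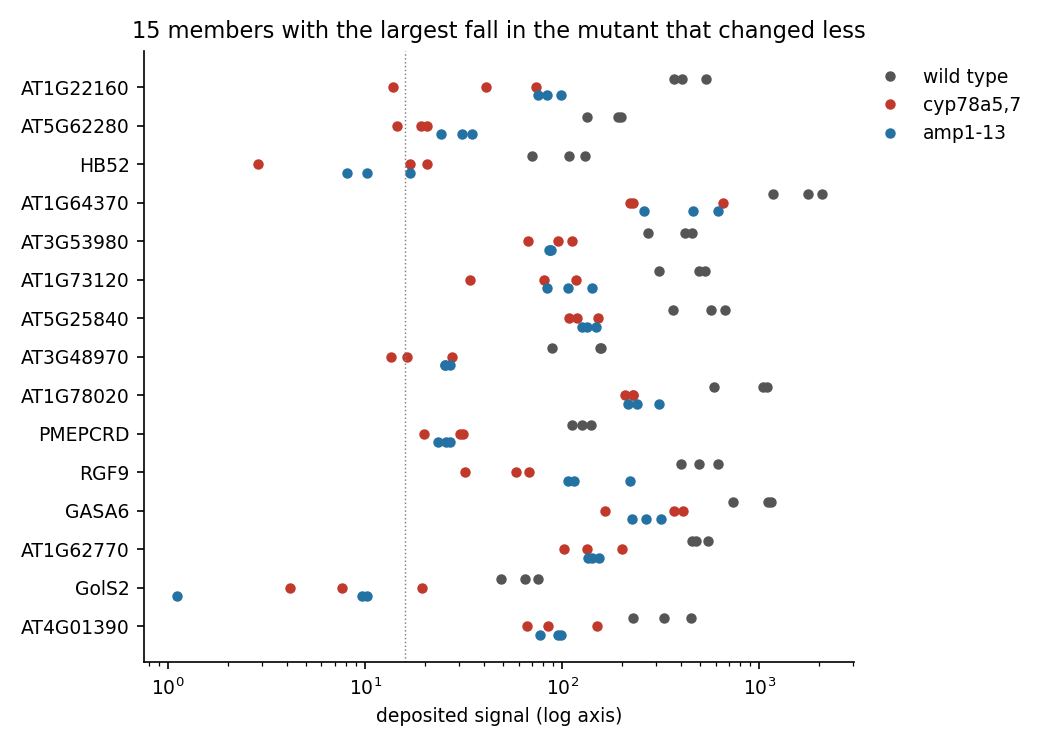
Deposited signal (log axis) on each of the 9 arrays for the 15 members with the largest fall in the mutant that changed less; each point is 1 array and the dotted line marks the offset of 16. All mutant points lie to the left of all wild type points, as the rule requires, and the mutants overlap in all but AT1G22160, AT5G62280 and RGF9.

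The set held 5 SAUR genes and a phosphatase gene of the same growth pathway. SAUR genes encode small proteins, many induced by auxin, several of which promote cell expansion by inhibiting phosphatases of the PP2C.D group, to which APD7 belongs. SAUR37 was the most lowered in the mutant that changed less, with signals of 323, 233 and 352 in wild type, 72.6, 92.2 and 118 in the double mutant and 76.4, 111 and 92.6 in amp1-13. Its 2 mutants overlapped, and the changes were -1.53 (cyp78a5,7) and -1.54 (amp1-13). SAUR32 read 488, 329.9 and 574 in wild type, 111, 103 and 152 in the double mutant and 129, 204 and 156 in amp1-13. SAUR71 read 126, 96.2 and 94.6 in wild type, 40.1, 25.04 and 19.6 in the double mutant and 43.99, 25.9 and 43.7 in amp1-13. In both genes the ranges of the mutants overlapped.

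The remaining 2 SAUR members, SAUR51 and SAUR57, had weak signals in the mutants. SAUR51 read 54.5, 33.5 and 61.1 in wild type, 9.22, 10.2 and 6.66 in the double mutant and 8.11, 10.7 and 28.3 in amp1-13. SAUR57 read 50.4, 25.4 and 38.05 in wild type, 3.79, 3.45 and 0.762 in the double mutant and 5.98, 0.732 and 3.71 in amp1-13, so that every mutant array of SAUR57 was below 16. APD7 read 339, 394 and 268 in wild type, 105, 55.5 and 22.3 in the double mutant and 107, 117 and 160.2 in amp1-13. It was lower on every cyp78a5,7 array than on every amp1-13 array, but the difference of -1.002 did not pass limma's test (95% interval -1.81 to -0.19, adjusted p = 0.114).

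Other SAUR genes were set beside these members. Of 68 SAUR genes listed, 25 had a named probe set, of which 22 were named only through the study's supplementary gene table, which lists genes selected on these arrays. Of the 25, 15 were called lower and 1 higher in cyp78a5,7, and 5 were called lower in amp1-13, which were the 5 members. The medians over the 25 were -1.19 and -0.62, compared with -0.024 and -0.011 over all probe sets. Between the mutants, 4 were called lower in cyp78a5,7: SAUR16 at -1.75, SAUR14 at -1.40, SAUR1 at -1.11 and SAUR72 at -1.11. SAUR6 was called in the other direction, at 1.16. In amp1-13 these genes met neither the 2-fold limit nor the order of arrays that the rule set. Nothing is therefore read from the smaller differences of the 5 members, -0.36 to 0.04.

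**Figure D3:**
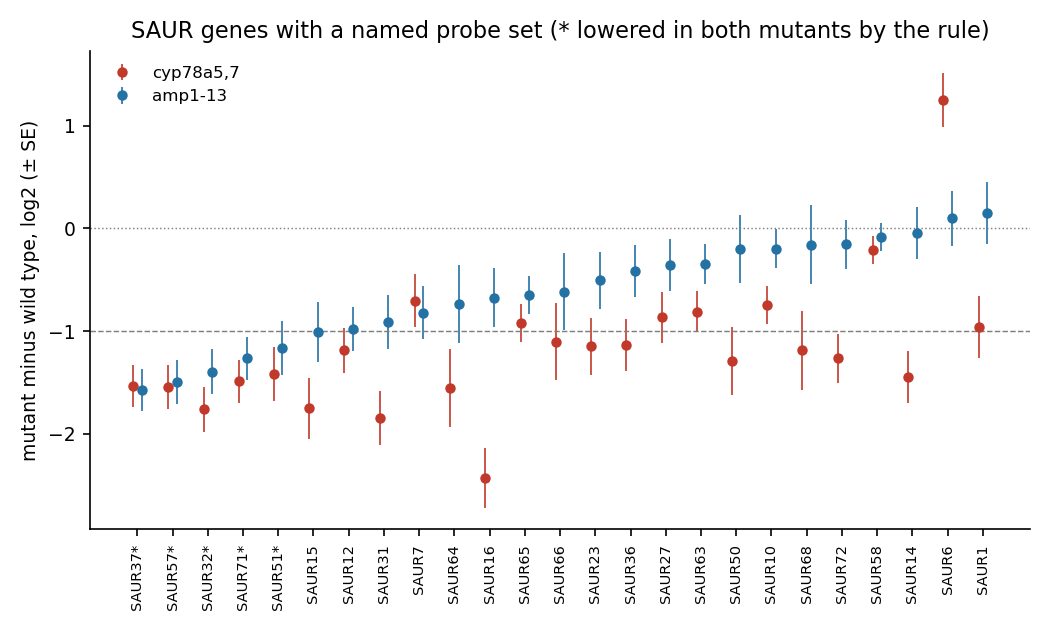
Change from wild type in cyp78a5,7 (red) and amp1-13 (blue) for the 25 SAUR genes with a named probe set, as quantile normalized log2 difference ± SE of the limma fit, ordered by the value in amp1-13; asterisks mark the 5 members and the dashed line is 2-fold. The members stand at the left end in amp1-13, while SAUR16 and SAUR31 fell further than they did in cyp78a5,7.

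Among 4 gibberellin-related members, GASA6 encodes a small cysteine-rich peptide induced by gibberellin. It read 1154, 734 and 1104 in wild type, 371, 412 and 164 in the double mutant and 226, 266 and 316 in amp1-13. The amp1-13 arrays lay within the cyp78a5,7 range, and the call of GASA6 in amp1-13 was lost without wild type array 3 (limma adjusted p = 0.0542). SLY1, the F-box protein that marks DELLA repressors for degradation, read 278, 160.5 and 313 in wild type, 74.2, 112 and 141 in the double mutant and 87.3, 102 and 112 in amp1-13. It was one of the smaller falls of the set, with changes of -1.08 (cyp78a5,7) and -1.15 (amp1-13). AT2G14900, placed under gibberellin signalling in the ontology text, changed by -1.50 (cyp78a5,7) and -1.66 (amp1-13). BRG2, a RING protein related to the regulator BOI, is taken up with the differences between the mutants.

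Transcription factor and chromatin genes were the largest group, with 11 members whose changes ran from -2.05 to -1.11 in cyp78a5,7 and from -2.08 to -1.01 in amp1-13. A pair of MADS-box genes known from roots belonged to it. AGL12, which acts in root meristem and root vascular development, read 90.6, 49.1 and 98.1 in wild type, 24.1, 23.3 and 23.2 in the double mutant and 29.8, 27.5 and 31.3 in amp1-13. The cyp78a5,7 arrays were nearly equal and all lay below the amp1-13 arrays. AGL44 (ANR1), known for the response of lateral roots to nitrate, read 60.3, 49.99 and 84.2 in wild type, 20.4, 25.1 and 13.2 in the double mutant and 19.5, 22.2 and 28.6 in amp1-13, with overlapping mutants.

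GPRI1 (GLK1), which promotes chloroplast development, read 174, 154 and 167 in wild type, 80.9, 57.8 and 48.8 in the double mutant and 59.1, 70.7 and 50.8 in amp1-13, with a narrow wild type range. The histone demethylase gene JMJD5, which is linked to the circadian clock, read 144, 209 and 122 in wild type, 68.9, 52.1 and 51.2 in the double mutant and 40.6, 59.4 and 58.3 in amp1-13. In JMJD5, wild type array 2 was the highest of the wild type arrays, in contrast to most members. NF-YA7, a subunit of the CCAAT-binding complex, changed by -2.05 (cyp78a5,7) and -1.15 (amp1-13), MYB45 by -1.39 (cyp78a5,7) and -1.24 (amp1-13), the linker histone gene HIS1-3 by -1.69 (cyp78a5,7) and -1.13 (amp1-13) and the high mobility group gene HMGB1 by -1.14 (cyp78a5,7) and -1.01 (amp1-13). Of the 14 circadian clock genes listed, 3 had a named probe set. PRR5 was called higher in both mutants (1.61 and 1.25 in limma, adjusted p = 0.00326 and 0.0188). CDF1 was called higher in cyp78a5,7 (1.29, limma adjusted p = 0.00207) and stood at 0.04 in amp1-13, and GI was called in neither (0.44 and 0.51). GI read 95.4, 247 and 106 in wild type. Wild type array 2 lay above all mutant arrays of GI, and wild type arrays 1 and 3 lay below them. The part of clock genes in the members' falls was not tested.

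Cell wall and surface genes numbered 5. PMEPCRD, a pectin methylesterase gene, read 112, 126 and 140.1 in wild type, 30.2, 31.5 and 19.9 in the double mutant and 25.6, 23.3 and 26.8 in amp1-13. Its wild type arrays stood well apart from both mutants, which overlapped. A further pectin methylesterase gene, PME61, changed by -1.01 (cyp78a5,7) and -1.26 (amp1-13), and AT5G48900, annotated to pectin breakdown, by -1.60 (cyp78a5,7) and -1.33 (amp1-13). AGP13, for an arabinogalactan peptide of the cell surface, read 549, 335 and 580 in wild type, 102, 184 and 103 in the double mutant and 218, 188 and 150.2 in amp1-13. The glycine-rich protein gene GRP3S read 2911, 2697 and 2877 in wild type, 894, 1282 and 908 in the double mutant and 883, 1100 and 917 in amp1-13. Its mutants overlapped, and wild type array 2 differed little from the other two.

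A further role group held 4 genes for ubiquitin, a ubiquitin-like protein and a proteasome subunit. SLY1, BRG2 and DAFL1 were not counted in this group and are described elsewhere. UBQ3 encodes polyubiquitin and read 516, 743 and 974 in wild type, 177, 161 and 234 in the double mutant and 251, 296 and 369.9 in amp1-13. All cyp78a5,7 arrays lay below all amp1-13 arrays, with a difference of -0.65 that did not pass limma's test (adjusted p = 0.128). MUB5, for a ubiquitin-like protein anchored in membranes, read 71.9, 56.5 and 83.6 in wild type, 14.97, 15 and 3.06 in the double mutant and 9.12, 17.7 and 10.8 in amp1-13, so that 5 of the 6 mutant values were below 16. Both genes for the small proteasome subunit DSS1 were members, DSS1(I) with changes of -1.05 (cyp78a5,7) and -1.02 (amp1-13) and DSS1(V) with -1.18 (cyp78a5,7) and -1.10 (amp1-13). Related copies such as these, and the polyubiquitin genes, may share probes, which were not separated.

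Genes known from water deficit, sugar status and dormancy included GolS2, a galactinol synthase gene that starts the synthesis of raffinose sugars. GolS2 read 64.7, 49.1 and 75.6 in wild type, 19.4, 7.63 and 4.16 in the double mutant and 1.103, 10.2 and 9.66 in amp1-13. Only 1 of its 6 mutant values exceeded the offset, and its calls against wild type were lost both with no offset and with an offset of 64. DI21, a drought-induced gene, read 1514, 791 and 1517 in wild type, 534, 352 and 351 in the double mutant and 375, 414 and 337 in amp1-13, with overlapping mutants. BCAT-2, for an enzyme of branched-chain amino acid breakdown, read 179.9, 143 and 180.3 in wild type, 85.02, 57 and 48.9 in the double mutant and 45.5, 65.9 and 50.4 in amp1-13. Its mutants overlapped, with changes of -1.23 (cyp78a5,7) and -1.40 (amp1-13). The list of carbon starvation and dormancy genes held 9 genes, of which 4 had a probe set named, all through the study's supplementary table. All 4 were called lower in cyp78a5,7 and only the members DYL1 and BCAT-2 in amp1-13.

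Among lipid genes, LTP4 encodes a lipid transfer protein and DGAT3 a soluble enzyme of triacylglycerol synthesis. LTP4 changed by -1.81 (cyp78a5,7) and -1.31 (amp1-13), DGAT3 by -1.51 (cyp78a5,7) and -1.49 (amp1-13) and AT3G58550, annotated to lipid transport, by -1.27 (cyp78a5,7) and -1.49 (amp1-13). MT3, a metallothionein gene, read 7344, 4652 and 5566 in wild type, 2964, 1552 and 1650 in the double mutant and 1974, 3687 and 2503 in amp1-13. Its mutants overlapped, and its changes were -1.54 (cyp78a5,7) and -1.12 (amp1-13) before normalization. In the fit MT3 changed by -1.249 (cyp78a5,7) and -0.898 (amp1-13), and the fall in amp1-13 was not called (limma adjusted p = 0.0786). AT1G53030, annotated to copper transport, changed by -1.10 (cyp78a5,7) and -1.25 (amp1-13). AHP3, which relays phosphate from cytokinin receptors to response regulators, read 727, 387 and 737 in wild type, 202, 197 and 196 in the double mutant and 209.8, 257 and 249 in amp1-13. The 3 cyp78a5,7 arrays of AHP3 were almost equal and lay below all amp1-13 arrays, but the difference of -0.25 had an interval that included 0 (-0.70 to 0.20). The 74 members with no role assigned here, 8 of them without a single gene name, had median changes of -1.43 in cyp78a5,7 and -1.18 in amp1-13.

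The rule sets no order between the 2 mutants, but it asks for a fall of at least 2-fold in each. A member can therefore be 2-fold higher in cyp78a5,7 only where it fell about 4-fold or more in amp1-13. Such a fall was seen for 4 members in amp1-13, against 21 in cyp78a5,7. The median difference of cyp78a5,7 minus amp1-13 over the members was -0.13 on the quantile normalized log2 scale, compared with -0.004 over all probe sets, and 84 members (70.0%) were lower in cyp78a5,7, compared with 51.0% of all probe sets. In 28 members (23.3%) all cyp78a5,7 arrays lay below all amp1-13 arrays, against 17.6% of all probe sets, and in 3 members (2.50%), AT5G57760, AT1G61930 and CYP722A1, the order was the reverse, against 12.6%. By limma 8 members (6.67%) were called lower in cyp78a5,7 than in amp1-13, against 1.76% of all probe sets. None was called higher, against 2.15% of all probe sets. Nothing is read from this absence, since such a call needs a fall of about 4-fold in amp1-13. At an unadjusted limma p under 0.05 there were 2 higher, AT5G57760 and PME61, and 26 lower, against 11.8% and 13.3% of all probe sets. The members were brighter than most probe sets, with a median wild type signal of 293, compared with 35.4 over all probe sets. The offset shrinks the changes of dim probe sets, so these shares do not compare like with like. Probe sets of matched brightness were not tested. The count of 8 was 3 without amp1-13 array 2, 4 without amp1-13 array 3 and 5 without cyp78a5,7 array 3. For 83 members the 95% interval of the difference lay within 2-fold in either direction, and for 92 it included 0, of which 14 reached beyond 2-fold. The median interval reached 0.51 to either side of its difference.

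**Figure D4:**
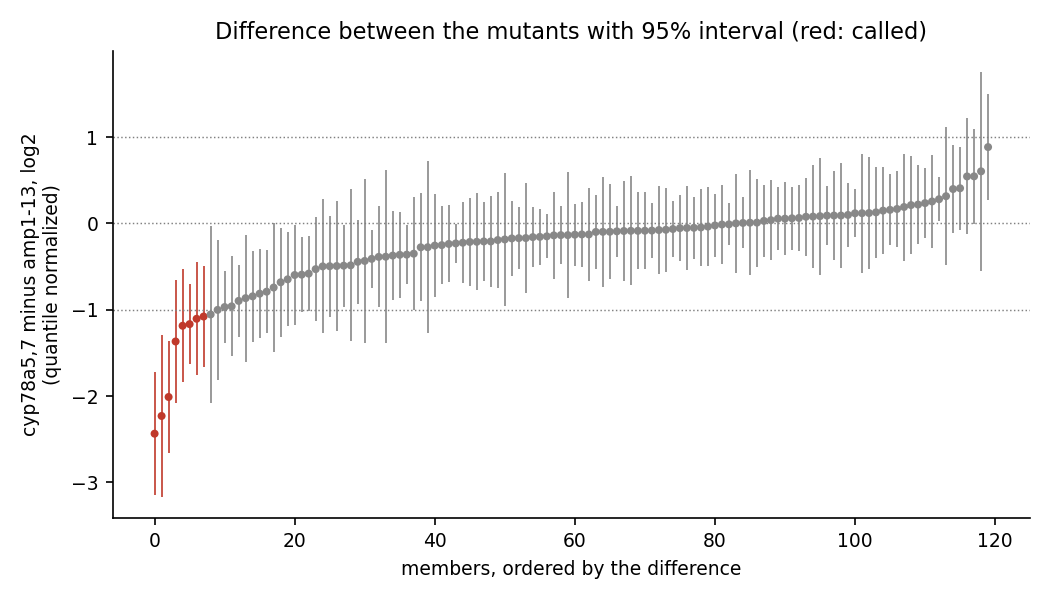
Difference of cyp78a5,7 minus amp1-13 (quantile normalized log2) for the 120 members in order of size; points are fitted differences, bars the 95% interval of limma's fit, red marks the 8 called members and dotted lines mark 2-fold and no difference. The called members run from -2.44 to -1.08, and the right end reaches 0.88 with no call.

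The 3 largest of these differences were those of SDI1, LSU1 and LSU2, genes whose transcripts are known to rise when sulphur is short. SDI1 represses the synthesis of glucosinolates, while LSU1 and LSU2 encode small related proteins. SDI1 read 1542, 1314 and 1592 in wild type, 206, 108 and 63.9 in the double mutant and 557, 664 and 827 in amp1-13. The 3 genotypes formed 3 separate ranges. cyp78a5,7 kept 8.51% of the wild type signal and amp1-13 kept 46.1%, and the direct difference was -2.44 ± 0.31 (SE, limma adjusted p = 0.00294). Against wild type, the fall of SDI1 in amp1-13 was not called (-0.98 in the fit, limma adjusted p = 0.0784).

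LSU1 read 1710, 1185 and 2115 in wild type, 314, 118 and 69.6 in the double mutant and 607, 732 and 758 in amp1-13. LSU2 read 923, 652 and 1089 in wild type, 133, 54.3 and 50.9 in the double mutant and 300, 397 and 334 in amp1-13. Both again fell into 3 separate ranges, with cyp78a5,7 array 1 the highest array of the double mutant in all 3 genes. In amp1-13 against wild type, LSU1 was not called (-1.06 in the fit, limma adjusted p = 0.131). LSU2 was called there (-1.22, limma adjusted p = 0.0291). The direct differences were -2.23 ± 0.41 for LSU1 and -2.01 ± 0.28 for LSU2 (SE, limma adjusted p = 0.0112 and 0.0041). SDI1 and LSU2 were called under all 17 alternatives, whereas LSU1 was not called without amp1-13 array 2 (adjusted p = 0.0518, the highest over its alternatives, from 0.000802). Without the 3 sulphur genes, 5 of 117 members (4.27%) were called lower in cyp78a5,7 and the median difference remained -0.13.

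The other 5 called members had smaller differences. BRG2 read 229, 280.2 and 225 in wild type, 51.5, 19.6 and 21.9 in the double mutant and 59.2, 135 and 133 in amp1-13, a difference of -1.37 (limma adjusted p = 0.0249). cyp78a5,7 array 1 and amp1-13 array 1 lay close together, and the other arrays were far apart. RGF9, a gene of the root meristem growth factor peptides that maintain the root stem cell niche, read 496, 401 and 615 in wild type, 67.9, 58.6 and 32.05 in the double mutant and 106, 114 and 222 in amp1-13. Its amp1-13 array 3 was the highest mutant value, and its difference was -1.19 (limma adjusted p = 0.031). DYL1, a dormancy-associated gene, read 1175, 528 and 1012 in wild type, 169.7, 125 and 111 in the double mutant and 249, 282 and 374 in amp1-13, in 3 separate ranges (-1.08, limma adjusted p = 0.0297).

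DAFL1, whose ontology text in the study's table names protein ubiquitination, read 215, 177 and 259 in wild type, 22.4, 37.8 and 42.8 in the double mutant and 85.7, 97.7 and 116 in amp1-13. It stood in 3 separate ranges and differed by -1.17 (limma adjusted p = 0.00888). AT1G34640 read 347, 188 and 375 in wild type, 66.9, 55.7 and 35.7 in the double mutant and 151, 96.3 and 160.1 in amp1-13, again without overlap (-1.105, limma adjusted p = 0.0409). The calls of BRG2, RGF9, DYL1 and AT1G34640 were each lost without amp1-13 array 2 or 3, or without cyp78a5,7 array 2 or 3. Each of these calls was also lost with no offset and with an offset of 64. Those of BRG2 and RGF9 were lost with the replicate number as a block and in fits of 2 genotypes, and that of DYL1 on the values as deposited. Those of RGF9 and AT1G34640 were also lost without wild type array 1, and that of AT1G34640 without amp1-13 array 1. The call of DAFL1 was lost without cyp78a5,7 array 1 and with an offset of 64. Over their alternatives the adjusted p reached 0.103 for BRG2, 0.0921 for RGF9, 0.107 for DYL1, 0.138 for AT1G34640 and 0.0411 for DAFL1.

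**Figure D5:**
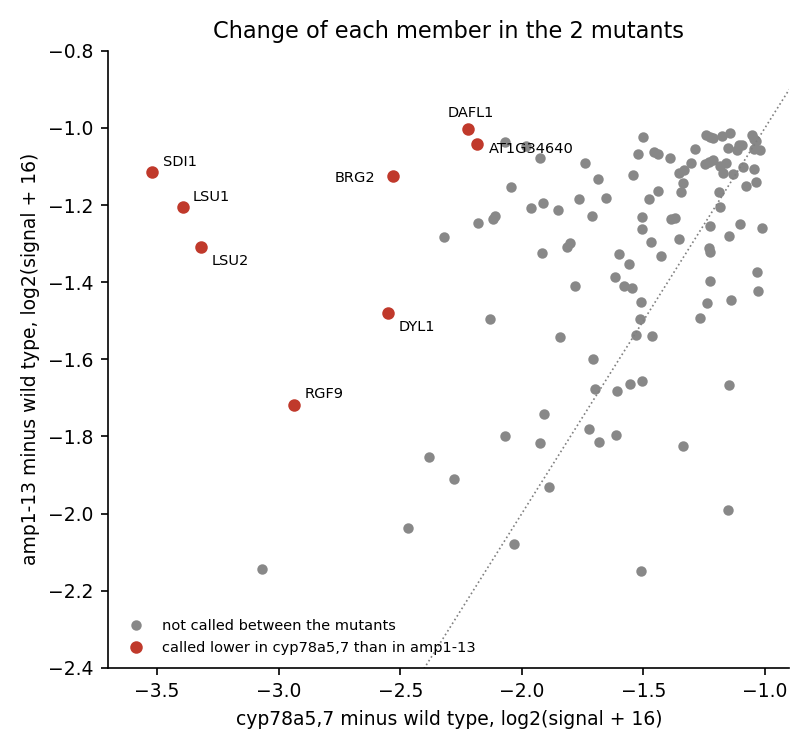
Change from wild type in cyp78a5,7 (x axis) and amp1-13 (y axis), as difference of mean log2(signal + 16), for the 120 members; the dotted line marks equal change and red points are called between the mutants by limma. SDI1, LSU1 and LSU2 lie at -3.52 to -3.32 in cyp78a5,7 but between -1.31 and -1.11 in amp1-13; both axes share the wild type arrays.

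Without the 2-fold limit, 13 members were lower in cyp78a5,7 than in amp1-13 at a limma adjusted p under 0.05, and none was higher. The shares of all probe sets, again matched neither for brightness nor for the falls that the rule asked for, were 6.23% and 5.39%. Beside the 8 called, the 13 members were AT1G60010, AT4G17670, AT2G17710, NF-YA7 and a probe set that matches both AT3G45070 and AT3G45080. AT1G60010 read 1316, 669.6 and 1065 in wild type, 209, 248 and 254 in the double mutant and 402, 495 and 508 in amp1-13, with 3 separate ranges. In the other direction, the largest difference was that of AT5G57760, at 209, 107 and 169.9 in wild type, 42.8, 61.4 and 86.8 in the double mutant and 33.4, 24.9 and 24.7 in amp1-13. Its amp1-13 arrays lay below all cyp78a5,7 arrays, and the difference of 0.88 did not pass limma's test (95% interval 0.27 to 1.499, adjusted p = 0.0722). AT3G29970 differed by 0.60 with an interval from -0.55 to 1.75, and its amp1-13 arrays were spread widely at 116, 318 and 601.

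Members that lie next to each other on a chromosome were looked for in the RefSeq annotation of TAIR10.1. Only AT1G64360 and AT1G64370 were direct neighbours, and 5 more pairs lay at most 5 genes apart, among them AT5G57760 and P1R1 with 1 gene between them. AT1G64360 read 123, 69.2 and 86.8 in wild type, 38.7, 5.06 and 14.1 in the double mutant and 15.6, 62.5 and 22.2 in amp1-13. Like its neighbour AT1G64370, it was highest on array 1 of cyp78a5,7, lowest on array 1 of amp1-13 and highest on array 2 of amp1-13. Counted after it had been seen in these genes, the same order of arrays was found in 20 members (16.7%), both neighbours included, compared with 8.73% of all probe sets. The 112 members with 1 gene were spread over all 5 chromosomes, with 34 on chromosome 1 and 14 on chromosome 4, compared with 26.4% and 14.6% of all placed probe sets (30.4% and 12.5% of the members).

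Organ markers bear on a set measured in whole seedlings. Of 17 root markers listed, 5 had a named probe set, and their summed signal was 4830 to 5472 in wild type, 3704 to 4678 in the double mutant and 4480 to 5042 in amp1-13, most of it from PYK10. PYK10, a glucosidase gene of the root, differed from wild type by 0.10 and 0.09 in the fit (limma adjusted p = 0.553 and 0.641), and the root hair genes EXPA7 and EXPA18 by -0.04 to 0.18. MYB66 (WER), of the root epidermis, differed by -0.92 and -0.93 with limma adjusted p = 0.0104 and 0.0197, and AGL12 was itself a member. MYB66 and AGL12 were named only through the study's supplementary gene table, which favours changed genes. PYK10, EXPA7 and EXPA18 were named through the platform annotation. Of 7 leaf markers only RCA, for Rubisco activase, had a named probe set, and its signal was 1898 to 2701, 2161 to 2789 and 3035 to 3825 in the 3 genotypes. In the fit RCA differed from wild type by 0.375 in cyp78a5,7 and 0.784 in amp1-13 (limma adjusted p = 0.122 and 0.0177). Of 10 shoot meristem markers 3 were named, LAS, UFO and CLV3, with sums of 10.1 to 17.3 in wild type, 17.9 to 27.5 in the double mutant and 10.4 to 22.8 in amp1-13, near the bottom of the scale. The part of organ composition in the members' falls was not tested.

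The remaining lists held 1 member. Of 19 genes for RGF, CLE and RALF peptides, 11 had a named probe set, and RGF9 was the only member. In this list 6 were called lower in cyp78a5,7 and 1, RGF9, in amp1-13. No member stood in the lists of Aux/IAA genes (10 named probe sets), phosphate starvation genes (7) or growth-related HLH and shade genes (10). None stood in those of cell cycle genes (7), ATG8 genes (9) and root epidermis genes (6) either. The members were 0.528% of all probe sets. Many probe sets of these lists were named only through the study's supplementary gene table, which favours changed genes. That share is therefore not the one to expect here, and nothing is read from the absence. Genes called lower in both mutants by limma without being members were IAA29, IAA4 and IAA11 of the Aux/IAA list and ETC1 of the root epidermis list. IAA29 and IAA4 had been left out by name. IAA11 stood at -1.10 and -1.01 and ETC1 at -1.01 and -1.02.

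Members near the 2-fold limit of the rule are given without a test. Just inside lay HMGB1, PME61 and DAFL1, whose smaller falls were 1.01, 1.01 and 1.003 on the log2(signal + 16) scale. Just outside lay AT3G27100, AT3G62650 and AT1G29270, at 0.995, 0.992 and 0.990. AT1G29270 missed the limit in cyp78a5,7 alone, with changes of -0.99 in cyp78a5,7 and -1.67 in amp1-13.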

How the data were processed

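Expression was measured on 9 Affymetrix ATH1 arrays, 3 for each of wild type, cyp78a5,7 and amp1-13. The deposited values are MAS5 signal intensities on a linear scale, which the authors scaled so that each array had a mean of 100.0 without the lowest and highest 2% of values. The study itself used RMA on the raw arrays, which cannot be repeated from these signals. The table holds no detection calls.

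After 64 control probe sets were left out, 22746 were kept. The rule was applied to log2(signal + 16) as deposited, with no normalization between arrays. For the tests, log2(signal + 16) was quantile normalized and fitted to all 9 arrays with genotype as the only term in limma 3.58.1 under R 4.3.3 (6 residual and 2.69 prior degrees of freedom). Two-sided p-values were adjusted by Benjamini-Hochberg across the 22746 probe sets, and a call needed an adjusted p under 0.05 and at least 2-fold. Comparisons with wild type repeat what the rule used and are descriptions. Signals of single genes are the deposited ones. The precision is limited by 3 arrays for each genotype.

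The members, gene lists and role groups were chosen with earlier results of these data known. Genes were named through the platform annotation and RefSeq symbols (72 members), then through the study's supplementary gene table (40 members), of which only probe set names and ontology text were used. That table lists genes the study selected on these arrays, so lists named through it favour changed genes. Its fold change and p-value columns were not used. All values are given for the 15 members with the largest fall in the mutant that changed less. They are also given for the members called between the mutants and those in a gene list. Other genes of the lists are mostly given by their changes. Further members are examples, chosen after their values were seen, and many of these also have all values given.

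The fit was tested on simulated data. Replicate numbers were checked for pairing. After the genotype means were removed, arrays of equal number correlated at -0.119 to 0.161 and arrays of unequal number at -0.174 to 0.247. No pairing by number was seen, but 3 arrays for each genotype cannot exclude it. The alternatives were other scalings and offsets, a filter on the lowest 30% of probe sets, a variance trend, fits of 2 genotypes, the replicate number as a block, and leaving out each array. Plots used matplotlib 3.10.9 (Python 3.11.15).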

Additional observations from a re-analysis of the deposited data

How the results depend on the processing

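The alternatives were run for the counts and for the median difference. They were also run for the 15 members with the largest falls against wild type and for the 8 called between the mutants. None of these results reversed its direction. The 15 and the 8 members were chosen on these same comparisons, so nothing is read from their kept direction. Other members were not tried singly. The number of members was 385 with no offset, 50 with an offset of 64, 14 when every mutant array had to lie 2-fold below every wild type array, and 85 to 293 when 1 array was left out, with 293 without wild type array 2. It was 112 on quantile normalized values, of which 105 were among the 120. Of the members, 113 were called in cyp78a5,7 against wild type, 61 with an offset of 64 and 91 to 116 when 1 array was left out. In amp1-13 against wild type, 100 were called, 63 with no offset, 45 with an offset of 64 and 52 to 108 when 1 array was left out. Between the mutants 8 were called, 5 with no offset, 3 with an offset of 64 and 3 to 11 when 1 array was left out. With the replicate number as a block the 3 counts were 113, 97 and 6, and the arrays shared a number and no measured pairing. The median difference between the mutants stayed between -0.171 and -0.076. Of the values of these 15 and 8 members under the alternatives, 253 of 255 in cyp78a5,7, 240 of 255 in amp1-13 and 101 of 136 between the mutants kept their direction and their call. Since the same comparisons chose the members, these shares are a description. A higher offset shrinks all changes of dim probe sets by construction, and the cause of the other shifts was not tested. Dim signals limit the members whose mutant values lie under 16.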
